A study of Mus musculus with 15 samples.

Results

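The genes described here are 10 that build the route by which a cell shows peptides on MHC class I: the classical heavy chains H2-K1 and H2-D1, the light chain B2m, the peptide transporter subunits Tap1 and Tap2, the loading bridge Tapbp, the immunoproteasome subunits Psmb8, Psmb9 and Psmb10, and the transactivator Nlrc5. They were taken by symbol from the count table, after its Ensembl identifiers had been matched to the GENCODE M21 annotation of the mouse genome build mm10 (GRCm38). All 10 were among the 33340 genes of the table, and all 10 were among the 17457 genes that passed the filter on low counts.

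Polyadenylated RNA was sequenced from whole lungs of C57BL/6 mice, adult males by the study's methods. The later groups had received bleomycin, a DNA-damaging drug that injures and scars the lung, once into the trachea at 5 U/kg, and were sampled at day 7 (4 libraries), day 14 (4 libraries) and day 21 (3 libraries). Day 0 (4 libraries) was labelled as untreated except in replicate 4. Day 0 replicate 4 is titled as a control but has bleomycin in its treatment label, and its title decided that it was counted with day 0. The series description gives 3 replicates for each time point, while the titles give 4, 4, 4 and 3, and the titles were followed. The study's text calls its mouse RNA-seq libraries biological replicates, without the labels tying each to a mouse, and p-values measure the spread between libraries. The comparisons asked how transcript levels of the class I genes stood at each day after the drug relative to day 0, and relative to each other.

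Total counts were 15652008 to 18020661 per library, and mitochondrial genes took 2.03% to 4.22% of them. The tissue was lung by its markers: Sftpc, surfactant protein C of alveolar type 2 cells, was at 2213 to 25100 CPM (counts scaled to a common library size) in all libraries. Heart and fat transcripts were carried unevenly. The summed level of 7 cardiac muscle genes was 23.7 to 284 CPM at day 0, 27.3 to 646 at day 7, 25.9 to 42.8 at day 14 and 18.8 to 758 at day 21, with Myh6 and Nppa at 0 in some library, and that of 5 adipose genes was 19.8 to 68.7, 9.43 to 137, 1.30 to 3.51 and 0.741 to 3.03 CPM, with Adipoq, Cfd, Car3 and Plin1 at 0 in some library. At days 7, 14 and 21 the cardiac genes tested fell in 0, 1 (Myh6) and 0 of 6, and the adipose genes, Cidec, Cfd and Car3 among them, in 1, 5 and 4 of 5, beside 7.36%, 11.2% and 10.1% of all genes lower. Without day 7 replicate 2 and day 14 replicate 1 the cardiac count at day 14 was 0. Their part in the results was not tested.

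MHC class I molecules are present on almost every nucleated cell. Cytosolic proteins are cut by the proteasome, whose catalytic subunits can be exchanged for the immunoproteasome set, and the peptides are pumped into the endoplasmic reticulum by TAP, where tapasin holds empty heavy chain and beta-2 microglobulin complexes ready for loading. Interferon gamma raises most of these genes through IRF1 and NLRC5, and the peptides shown at the cell surface are read by CD8 T cells, while natural killer cells sense when class I is missing.

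The promoters of the class I genes are known for a shared arrangement of short elements, in which a kappaB site and an interferon site lie upstream of the X and Y boxes to which NLRC5 is recruited. Promoter windows from RefSeq (build GRCm38.p6) were found for 8 of the 10 genes, and 4 stretches are shown because the transcripts they precede varied together between libraries, as described further on. Each stretch ends 1 base before the RefSeq start site, except that the one between Tap1 and Psmb9 spans the 225 bases between the start sites of these neighbours. Capitals mark matches, on either strand, to GGGNNTTCC (kappaB site), AANNGAAA (core of the interferon regulatory factor site), TGACG (CRE half-site, part of the X box) and CCAAT (NF-Y site, the core of the Y box). H2-K1 lies on the minus strand at chr17:34000348-34000597, H2-D1 on the plus strand at chr17:35262844-35263093, B2m on the plus strand at chr2:122147437-122147686, and the Tap1 and Psmb9 stretch, written in the direction of Tap1, at chr17:34187331-34187555.
H2-K1: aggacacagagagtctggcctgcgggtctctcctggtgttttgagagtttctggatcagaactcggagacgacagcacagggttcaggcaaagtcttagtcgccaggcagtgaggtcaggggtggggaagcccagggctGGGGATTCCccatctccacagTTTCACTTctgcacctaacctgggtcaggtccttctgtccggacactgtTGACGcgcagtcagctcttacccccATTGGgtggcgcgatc
H2-D1: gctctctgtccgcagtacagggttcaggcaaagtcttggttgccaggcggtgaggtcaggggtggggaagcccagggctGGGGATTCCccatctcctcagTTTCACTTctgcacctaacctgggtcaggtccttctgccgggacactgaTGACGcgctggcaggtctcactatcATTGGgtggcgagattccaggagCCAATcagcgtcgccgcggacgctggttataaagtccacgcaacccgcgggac
B2m: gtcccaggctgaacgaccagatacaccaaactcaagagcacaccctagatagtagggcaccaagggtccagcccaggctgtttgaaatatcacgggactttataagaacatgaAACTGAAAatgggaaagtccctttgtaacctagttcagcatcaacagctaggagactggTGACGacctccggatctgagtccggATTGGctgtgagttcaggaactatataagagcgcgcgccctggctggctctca
Tap1 and Psmb9: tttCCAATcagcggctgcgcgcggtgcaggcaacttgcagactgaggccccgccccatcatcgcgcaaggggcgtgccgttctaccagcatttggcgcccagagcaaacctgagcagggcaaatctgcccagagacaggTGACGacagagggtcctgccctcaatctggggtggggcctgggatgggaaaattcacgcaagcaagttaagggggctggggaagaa

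The H2-K1 and H2-D1 windows both held the kappaB, interferon, CRE and NF-Y letters in the same order, and 161 of the 177 bases of their best local alignment were identical (91%). B2m held the interferon, CRE and NF-Y letters and had no match to GGGNNTTCC in its window. The Tap1 and Psmb9 stretch held CCAAT and TGACG only. Among 32817 promoter windows of 250 bases, GGGNNTTCC was found in 4.97%, AANNGAAA in 21.3%, TGACG in 17.7% and CCAAT in 33.8%. Among the 8 class I genes with a window, the same motifs were found in 2, 3, 5 and 6. These are not independent counts. The TGACG and CCAAT of the stretch between Tap1 and Psmb9 count for both genes, and the H2-K1 and H2-D1 windows are alike. These are matches of letters and not evidence of binding.

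Levels per kilobase of exon spread widely among the 10 genes. B2m, the light chain that every class I heavy chain needs, stood highest at a mean of 1291 CPM per kb over the 15 libraries, in place 17 of 17437 tested genes with a known exon length. H2-D1 followed at 594 CPM per kb (place 40) and H2-K1 at 395 (place 64). Tapbp was at 59.1 CPM per kb, Psmb10 at 29.2, Tap1 at 11.4, Tap2 at 9.28, Psmb9 at 7.51, Psmb8 at 3.79 and Nlrc5 at 2.68. The lowest and highest library of the heavy and light chains (281 to 625 for H2-K1, 444 to 837 for H2-D1 and 899.8 to 1788 for B2m) did not reach those of any other member, the next being Tapbp at 45.4 to 81.9 CPM per kb.

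Across the days, few of the 10 genes passed the thresholds, set at 0.05 for the adjusted p and at 1.5 for the fold change in either direction. At day 7 against day 0, 1 of 10 rose and none fell, where 16.1% of all tested genes passed (8.78% higher and 7.36% lower). At day 14, 0 of 10 passed, where 23.1% of all genes did (12% higher and 11.2% lower). At day 21, 0 of 10 passed, where 22.5% of all genes did (12.4% higher and 10.1% lower). On the adjusted p alone 3 of 10 passed at day 7, 1 at day 14 and 0 at day 21, beside 25%, 33.1% and 29.8% of all genes. At an unadjusted p under 0.05, edgeR had 4, 1 and 3 of 10, beside 38.2%, 43.3% and 40.5% of all genes, and DESeq2 likewise called 0 members past both thresholds at days 14 and 21. The members' median log2 fold change was 0.23 at day 7, 0.10 at day 14 and -0.16 at day 21, beside 0.01, 0.02 and 0.02 over all tested genes. All 10 fold changes were above 0 at day 7 and 9 of 10 were below 0 at day 21, and these counts were the same with total count scaling, RLE factors and DESeq2. At day 14, 7 of 10 were above 0, or 6 with RLE factors or DESeq2. The 3 comparisons share the day 0 libraries. In whole lung, fewer cells of a type and less RNA per cell cannot be told apart.

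**Figure D1:**
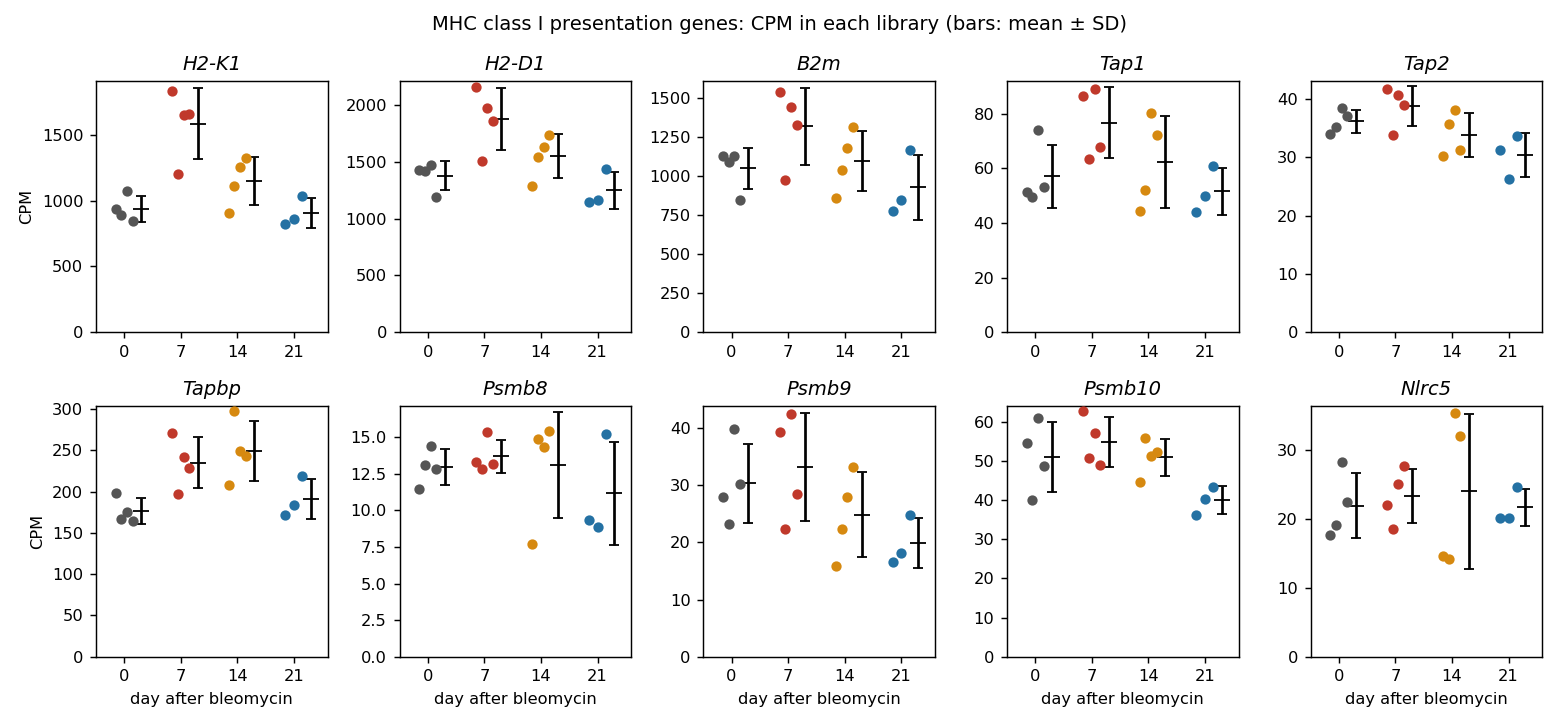
CPM (vertical axes, from 0) of the 10 class I genes in each of the 15 libraries, by day after bleomycin, with the mean and SD of each day as bars. All 4 day 7 libraries of H2-K1 (1203 to 1836 CPM) lie above all day 0 libraries (843 to 1072 CPM), while the days overlap for Psmb8 and Nlrc5.

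H2-K1 (ENSMUSG00000061232, chr17:33996017-34000347, minus strand) encodes one of the classical heavy chains, the peptide-binding chain seen by CD8 T cells. Its libraries were at 935, 889, 1072 and 843 CPM at day 0, at 1836, 1203, 1651 and 1661 at day 7, at 906, 1113, 1257 and 1326 at day 14, and at 826, 858 and 1036 at day 21. The day 7 libraries all lay above day 0, with replicate 2 the lowest of them. The means were 935 ± 99.0 (SD, n = 4), 1588 ± 270.4 (n = 4), 1150 ± 185.8 (n = 4) and 907 ± 113.0 CPM (n = 3). H2-K1 rose 1.70-fold at day 7 (log2 fold change 0.76, SE 0.16, adjusted p = 0.00325), and it was the member that passed. It was 1.23-fold higher at day 14 (adjusted p = 0.158) and close to day 0 in level at day 21 (-0.04 on the log2 scale, adjusted p = 0.871), and neither passed. With the doubtful day 0 library (replicate 4) left out, H2-K1 was still called, at 0.70 (adjusted p = 0.0167).

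H2-D1 (ENSMUSG00000073411, chr17:35262730-35267499, plus strand) encodes the other classical heavy chain. Its libraries were at 1428, 1423, 1473 and 1195 CPM at day 0, at 2159, 1509, 1978 and 1862 at day 7, at 1288, 1547, 1633 and 1738 at day 14, and at 1145, 1162 and 1440 at day 21. Day 7 lay above day 0 in every library and overlapped day 14. The log2 fold change was 0.44 at day 7 (SE 0.15, adjusted p = 0.0361), which passed the adjusted p and fell short of the fold change threshold at 1.36-fold. That adjusted p did not hold without day 0 replicate 4 (log2 fold change 0.36, adjusted p = 0.13), and leaving out the libraries of these days in turn lost it in 7 of 8 cases (adjusted p 0.0237 to 0.135), the exception being the fit without day 7 replicate 2. It was also lost with no filter on low counts (0.0787), with the mitochondrial share added (0.0964) and with that share and the replicate number (0.142). The log2 fold change was 0.17 at day 14 (adjusted p = 0.398) and -0.14 at day 21 (adjusted p = 0.528).

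The ratio of H2-K1 to H2-D1 counts within a library, which is free of library scaling, had a log2 mean of -0.56 ± 0.10 (SD) at day 0 and -0.25 ± 0.07 at day 7, and the 4 libraries of each day did not overlap. The difference of 0.32 had an exact two-sided permutation p of 0.0286, the smallest that 4 against 4 libraries allow, and 0.114 after adjustment over the 12 ratio tests, so it did not pass. A single ratio at that smallest p could not pass this adjustment. At days 14 and 21 the differences were 0.12 and 0.10, with exact permutation p of 0.143 and 0.2. Of the 150-base windows of their transcripts, 0 of 4369 in H2-K1 and 35 of 2591 in H2-D1 (1.35%, all in H2-Q1) are identical to another gene, and reads with several alignments had been left out by the authors. H2-K2, a paralogue next to H2-K1, was at 22.5, 8.89, 12.02 and 8.75 CPM on average at days 0, 7, 14 and 21 (chosen after its values were seen).

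B2m (ENSMUSG00000060802, chr2:122147686-122153083, plus strand) lies outside the MHC. It was at 1130, 1089, 1128 and 850 CPM at day 0, at 1538, 972, 1443 and 1326 at day 7, at 858, 1038, 1181 and 1312 at day 14, and at 774, 847 and 1167 at day 21. In day 7, 3 of 4 libraries lay above every day 0 library, and replicate 2 lay below the day 0 mean of 1049 ± 134.2 (SD, n = 4). The log2 fold changes of 0.33 (SE 0.18), 0.06 (SE 0.18) and -0.18 (SE 0.20) at days 7, 14 and 21 did not pass (adjusted p = 0.193, 0.815 and 0.540). The order of the days was the same for H2-K1, H2-D1 and B2m for days 7, 14 and 0, then 21, and no pair of neighbours in that order passed the thresholds for H2-K1 (day 7 against day 14, adjusted p = 0.0831), H2-D1 (0.252) or B2m (0.382).

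Tap1 (ENSMUSG00000037321, chr17:34187553-34197225, plus strand) and Tap2 (ENSMUSG00000024339, chr17:34203527-34216321, plus strand) encode the subunits that pair to form the peptide pump. Tap1 was at 51.3, 49.4, 74.2 and 53.2 CPM at day 0, at 86.5, 63.2, 88.9 and 67.9 at day 7, at 44.3, 52.0, 80.3 and 72.3 at day 14, and at 43.8, 49.8 and 60.9 at day 21. Replicate 3 of day 0 was its highest untreated library and lay within the day 7 range. The log2 fold changes were 0.43 (SE 0.19, adjusted p = 0.113), 0.13 (adjusted p = 0.644) and -0.15 (adjusted p = 0.636). Tap2 was flatter, at 34.1 to 38.5 CPM at day 0, 33.8 to 41.7 at day 7, 30.3 to 38.1 at day 14 and 26.3 to 33.7 at day 21. All 3 day 21 libraries of Tap2 lay below day 0, at -0.25 on the log2 scale (SE 0.12, adjusted p = 0.122).

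Tapbp (ENSMUSG00000024308, chr17:33915899-33929292, plus strand) encodes tapasin, which bridges TAP to the empty heavy chain. It was at 199, 167, 175 and 165 CPM at day 0, at 271, 198, 242 and 229 at day 7, at 208, 297, 249 and 243 at day 14, and at 172, 183 and 219 at day 21. Every day 14 library lay above day 0, and the Tapbp mean was highest at day 14, at 249 ± 36.7 CPM (SD, n = 4). The log2 fold change was 0.41 at day 7 (SE 0.13, adjusted p = 0.0293) and 0.50 at day 14 (SE 0.13, adjusted p = 0.00811), which passed the adjusted p and stayed under the fold change threshold at 1.33-fold and 1.41-fold. With 1 library left out in turn, the day 14 adjusted p was kept in 8 of 8 fits (0.00479 to 0.0351), and that of day 7 was lost in 5 of 8 (0.0228 to 0.116), those without day 0 replicates 2, 3 or 4 or day 7 replicates 1 or 3. The day 7 adjusted p was also lost with no filter on low counts (0.0578), with the mitochondrial share added (0.101) and with that share and the replicate number (0.132). At day 21 the log2 fold change was 0.12 (adjusted p = 0.567). The counting may split reads here, since Tapbp shares 149 exon bases with Zbtb22 and 904 with the antisense gene Gm19412, which is not among the genes counted, and the strand setting is not given in the sources used here. For the same reason Tap1 and Psmb9, which face away from each other and share 212 exon bases, Tap2, which shares 533 with Gm15821 (5 to 24 counts per library), and Psmb8, which shares 498 with Gm20496 (0 to 4 counts), carry that uncertainty.

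**Figure D2:**
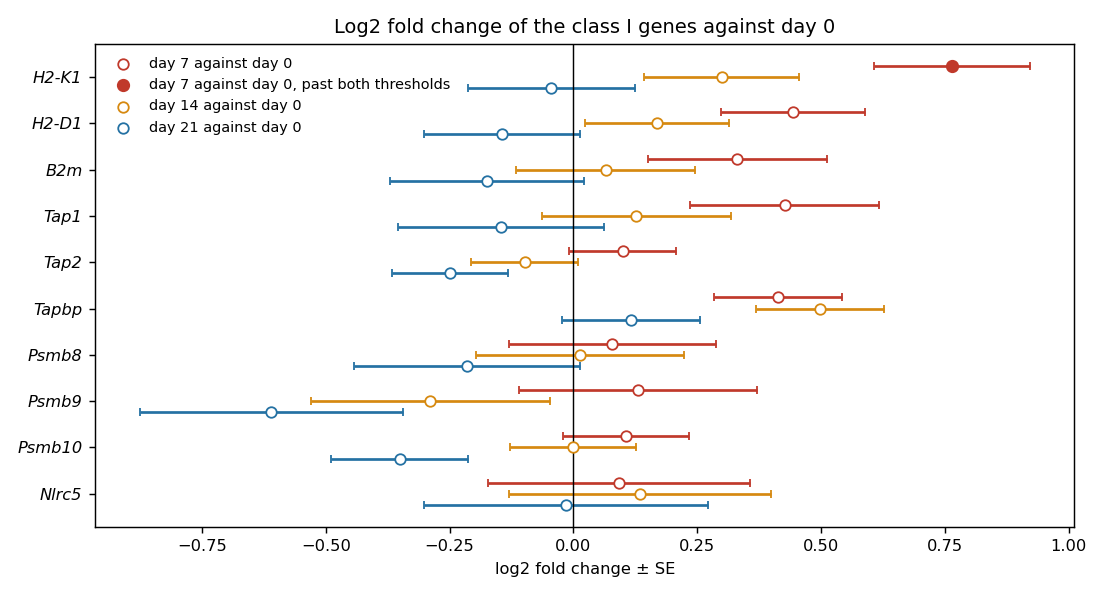
Log2 fold change against day 0 (horizontal axis, bars are the SE of the edgeR fit) of the 10 genes at days 7, 14 and 21, which share the 4 day 0 libraries. The single filled point, H2-K1 at day 7 (0.76), passed both thresholds, and 9 of the 10 day 21 points lie below 0.

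The immunoproteasome subunits replace the catalytic subunits of the standard proteasome: Psmb8 replaces Psmb5, Psmb9 replaces Psmb6 and Psmb10 replaces Psmb7. None of the 3 passed the test on any day. Psmb8 (ENSMUSG00000024338, chr17:34197721-34201454, plus strand) was at 11.5 to 14.4 CPM at day 0, 12.8 to 15.4 at day 7, 7.68 to 15.45 at day 14 and 8.89 to 15.2 at day 21. Psmb9 (ENSMUSG00000096727, chr17:34181987-34187764, minus strand) was at 27.9, 23.2, 39.7 and 30.2 CPM at day 0, at 39.3, 22.3, 42.5 and 28.4 at day 7, at 15.8, 22.3, 27.9 and 33.1 at day 14, and at 16.5, 18.2 and 24.8 at day 21. The days overlapped for Psmb9 at every comparison with day 0. Its log2 fold changes were 0.13 (SE 0.24, adjusted p = 0.728), -0.29 (SE 0.24, adjusted p = 0.386) and -0.61 (SE 0.27, adjusted p = 0.0957), and the last passed when days 0 and 21 were fitted alone (-0.64, adjusted p = 0.0486). Psmb10 (ENSMUSG00000031897, chr8:105935735-105938444, minus strand), which like B2m lies outside the MHC, was at 40.03 to 60.9 CPM at day 0, 48.9 to 62.8 at day 7, 44.6 to 55.9 at day 14 and 36.2 to 43.4 at day 21, and its day 21 change on the log2 scale was -0.35 (SE 0.14, adjusted p = 0.0676).

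All 14 subunits of the standard 20S proteasome had a log2 fold change above 0 on each later day, also with total count scaling, RLE factors and DESeq2, with medians of 0.40, 0.49 and 0.38. On the adjusted p alone 7, 14 and 7 of 14 passed, beside 25%, 33.1% and 29.8% of all genes. Both thresholds were passed by 0, 3 and 0 of 14, also with DESeq2, beside 16.1%, 23.1% and 22.5% of all genes, and 14, 14 and 10 had an unadjusted p under 0.05 in edgeR, beside 38.2%, 43.3% and 40.5%. The 3 that rose at day 14 were Psma5 (0.68, adjusted p = 0.00157), Psmb5 (0.64, adjusted p = 0.00872) and Psmb2 (0.63, adjusted p = 0.00393). Psmb6, the counterpart of Psmb9, was at 68.1 to 86.5 CPM at day 0, 104.8 to 114 at day 7, 101 to 140.2 at day 14 and 96.1 to 112 at day 21, and its later days did not overlap day 0 (log2 fold changes 0.47, 0.58 and 0.43). Psma5 and Psmb5 have 11.9% and 5.91% of their 150-base windows in another gene. Psmb7, the counterpart of Psmb10, had log2 fold changes of 0.50, 0.49 and 0.39.

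Each exchange was then followed as a log2 ratio of counts within a library. The Psmb9 to Psmb6 ratio was -1.37 ± 0.26 (SD, n = 4) at day 0, -1.74 ± 0.41 at day 7, -2.26 ± 0.58 at day 14 and -2.41 ± 0.35 (n = 3) at day 21. The 4 day 14 and 3 day 21 libraries all lay below day 0, whose lowest library was at -1.61, against a highest of -1.67 at day 14 and -2.06 at day 21. The differences of -0.89 and -1.04 had exact two-sided permutation p of 0.0286 each, the smallest possible, and 0.114 after adjustment over 12 tests, so neither passed. The Psmb10 to Psmb7 ratio went from 0.21 ± 0.26 to -0.17 ± 0.17, -0.25 ± 0.32 and -0.52 ± 0.15, and all 3 day 21 libraries lay below day 0 (difference -0.74, exact permutation p = 0.0571, adjusted 0.114). The Psmb8 to Psmb5 differences were -0.37, -0.63 and -0.63, with overlap at each day and adjusted exact permutation p of 0.114. All 9 differences were negative, 0 of 9 passed the adjustment, and the lowest adjusted p that 12 tests gave was 0.114. No exact p could be under 0.0286, so a fully separated ratio could not pass the adjustment on its own. The lack of passes therefore cannot tell whether the ratios changed.

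**Figure D3:**
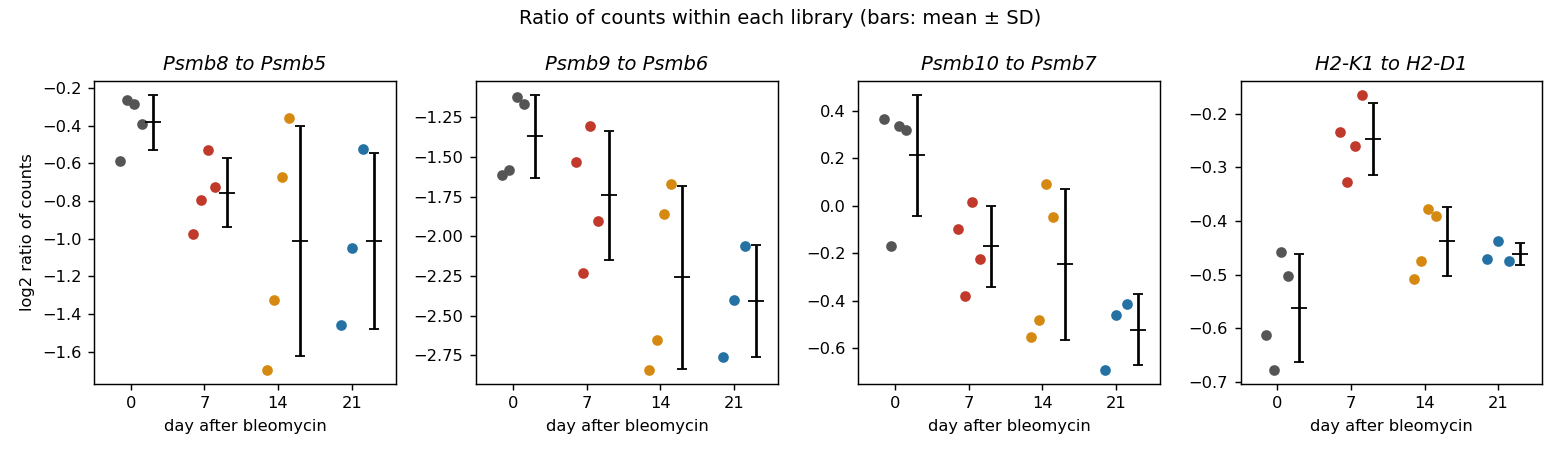
Log2 ratio of counts within each library (vertical axes, each panel on its own scale) for the 3 immunoproteasome subunits over the subunits they replace, and for H2-K1 over H2-D1, by day after bleomycin, with mean and SD bars. The Psmb9 to Psmb6 ratio lies below every day 0 library in all 4 day 14 and all 3 day 21 libraries, and H2-K1 to H2-D1 lies above every day 0 library in all 4 day 7 libraries.

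Nlrc5 (ENSMUSG00000074151, chr8:94434356-94527272, plus strand) encodes the transactivator that is recruited to class I promoters. It was at 17.7, 19.1, 28.3 and 22.4 CPM at day 0, at 21.98, 18.5, 25.0 and 27.7 at day 7, at 14.5, 14.1, 35.2 and 32.0 at day 14, and at 20.1, 20.1 and 24.7 at day 21. At day 14 its libraries fell into a low and a high pair on either side of the day 0 mean of 21.9. The log2 fold changes of 0.09, 0.13 and -0.02 did not pass (adjusted p = 0.830, 0.733 and 0.975), and their SEs were 0.26 to 0.29.

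Between the later days, H2-K1 and H2-D1 fell from day 7 to day 21. In that comparison 2 of 10 members passed both thresholds, both lower, beside 9.54% of all genes, and 3 of 10 passed the adjusted p alone, beside 12.6%. H2-K1 fell by 0.81 on the log2 scale (SE 0.17, adjusted p = 0.0096), 1.75-fold, and all 3 day 21 libraries lay below all 4 day 7 libraries. It was not called in 2 of 19 alternative fits. In the edgeR fit that adds the replicate number and the mitochondrial share its adjusted p was 0.0631. H2-D1 fell by 0.59 (SE 0.16, adjusted p = 0.0268), which at 1.503-fold sits on the threshold, and 13 of 19 alternative fits did not call it. Its adjusted p alone was lost in 5 of 7 fits with a library left out (0.0186 to 0.0824), those without day 7 replicates 1, 3 or 4 or day 21 replicates 1 or 2. It was also lost in the fits that add the mitochondrial share (0.0604) or that share and the replicate number (0.147). Psmb10 had a difference of -0.46 (adjusted p = 0.0426), under the fold change threshold. All 10 members were below 0, with a median of -0.48 beside 0.00 over all genes, and 5 of 10 (H2-K1, H2-D1, Tap1, Tap2 and Psmb10) had no overlap between the days, beside 28% of all genes. Against day 0, 2 of 10 had no overlap at day 7, 1 at day 14 and 1 at day 21, beside 30.8%, 31.1% and 35.5%.

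Days 14 and 7 gave 0 of 10 members past the thresholds in edgeR (1 at an unadjusted p under 0.05), beside 6% of all genes (25% at an unadjusted p under 0.05), with log2 differences of -0.47 (H2-K1) to 0.08 (Tapbp). Days 21 and 14 gave 0 of 10, beside 0% of all genes in edgeR, where 9.82% of genes had an unadjusted p under 0.05 and DESeq2 called 101 genes. All 10 members lay below 0 there, from -0.38 for Tapbp to -0.15 for Nlrc5. At an unadjusted p under 0.05, Tapbp (0.0153) and Psmb10 (0.0226) passed.

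Within a day the class I genes varied together from library to library. Over the 15 libraries, deviations of log2 CPM from the day mean had Pearson correlations with a median of 0.677 over the 45 pairs of members, and all 45 were above 0. H2-D1 and B2m, on different chromosomes, had the highest (0.985), H2-K1 and H2-D1 had 0.948, Tap1 and Psmb9 had 0.927, and Tapbp and Nlrc5 had the lowest (0.0511). Libraries share their depth and scaling across all pairs, so these are descriptions with no test. Pairs of other genes were not correlated in this way, so the values cannot tell whether this is particular to the members. Day 7 replicate 2 was the lowest of its day in 9 of 10 members, day 14 replicate 1 in 9 of 10, and day 21 replicate 1 in 8 of 10, while day 21 replicate 3 was the highest in 10 of 10 and day 0 replicate 3 in 8 of 10. Other lists deviated in the same direction in day 7 replicate 2, day 14 replicate 1 and day 21 replicate 3. The mean deviation of the 9 class II genes was -0.81, -0.60 and 0.65 in these libraries, that of the CD8 T cell and natural killer cell genes was -0.55, -0.60 and 0.70, and that of the type I interferon response was -0.34, -0.51 and 0.29. The standard proteasome subunits deviated by 0.07, 0.06 and 0.00 there, but by 0.16 in day 0 replicate 3, where the 10 members deviated by 0.21. In some other libraries the lists and the members parted. In day 14 replicate 2 the class II, CD8 T and natural killer cell, and type I lists were at -0.44, -0.47 and -0.46, with the members at -0.03. The CD8 T cell and natural killer cell genes were at 0.62 and -0.75 in day 0 replicates 1 and 4, with the members at -0.03 and -0.07. The part of cell makeup in these deviations was not tested. Without day 7 replicate 2 and day 14 replicate 1, H2-K1 remained the member called at day 7 (0.86, adjusted p = 0.000868), Psmb9 was called lower at day 21 (-0.64, adjusted p = 0.0327), and 5 members in place of 2 were called lower at day 21 than at day 7. In that fit 14%, 20.2% and 23.1% of all genes were called at days 7, 14 and 21 against day 0, and 10.6% at day 21 against day 7. The 2 libraries had been picked for the members' low levels in them. Leaving them out raises the members' day 7 and day 14 means by construction, so the calls of that fit are no separate support.

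**Figure D4:**
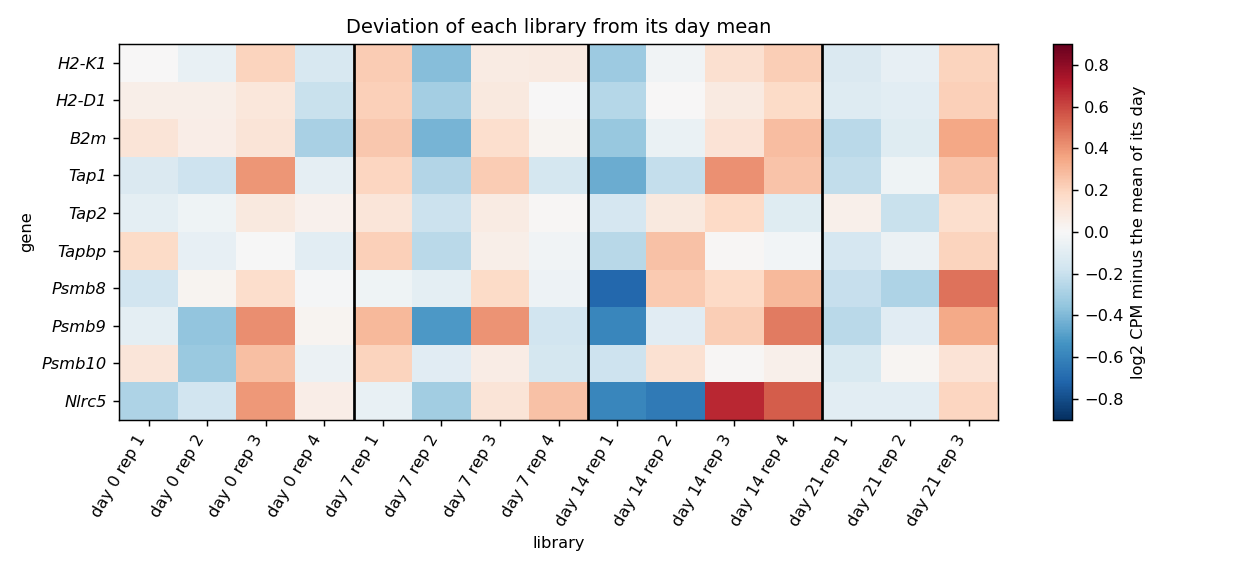
Colour shows log2 CPM minus the mean of its day for each gene (rows) and library (columns), with lines between the days. Day 7 replicate 2 and day 14 replicate 1 are blue in nearly every row and day 21 replicate 3 is red in all 10, and the widest range is that of Nlrc5 at day 14.

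Of 12110 genes outside the lists with a mean of at least 5 CPM, those most like the mean of the 10 members across the 15 libraries, by Pearson correlation of log2 CPM, were Tada3 (0.920), Il2rg (0.897), Tmem237 (0.874), Ly6e (0.874) and Rnpep (0.869). Tada3, a subunit of histone acetyltransferase complexes, averaged 28.7, 32.1, 27.4 and 23.7 CPM at days 0, 7, 14 and 21. Ly6e, an interferon-inducible surface protein, averaged 926, 1106, 885 and 781 CPM.

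Genes that act beside the 10 members were read from lists. Among 7 genes of peptide loading and trimming, 3 rose at day 7, 1 at day 14 and 0 at day 21, beside 8.78%, 12% and 12.4% of all genes higher, and none fell, with medians of 0.52, 0.37 and 0.25. Calr, the chaperone of the loading complex, rose at day 7 (551 ± 168 to 901 ± 86.9 CPM, log2 fold change 0.71, adjusted p = 0.0232) and day 14 (0.63, adjusted p = 0.0304). Without day 7 replicate 2 and day 14 replicate 1, none of the 7 was called at day 14. Pdia3, the disulfide isomerase of that complex (0.72, adjusted p = 0.00767), and Uggt1, which checks glycoprotein folding (0.69, adjusted p = 0.00394), rose at day 7. These chaperones serve all glycoproteins and not class I alone. Erap1, which trims peptides to length, had log2 fold changes of 0.29 and -0.05 at days 7 and 21 (adjusted p = 0.187 and 0.865).

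Of 4 proteasome activator and assembly genes none passed both thresholds in edgeR or DESeq2, beside 16.1%, 23.1% and 22.5% of all genes, and 3, 2 and 0 had an unadjusted p under 0.05 in edgeR at days 7, 14 and 21, beside 38.2%, 43.3% and 40.5%. Psme1, of the interferon-inducible activator ring, was at 96.0 ± 9.61, 123 ± 15.9, 101 ± 9.75 and 83.2 ± 5.80 CPM at days 0, 7, 14 and 21 (log2 fold change 0.36 at day 7, adjusted p = 0.0297), and Psme2, its partner, at 53.1, 68.6, 67.3 and 50.6 CPM (0.37 at day 7, adjusted p = 0.066).

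Nonclassical heavy chains present particular ligands or serve innate-like cells. Of 17 class Ib and class I-like genes 15 were tested, and 3 fell at day 7, 3 at day 14 and 5 at day 21, beside 7.36%, 11.2% and 10.1% of all genes lower. On these days 0, 1 and 1 rose, beside 8.78%, 12% and 12.4% of all genes higher. The medians were -0.20, -0.24 and -0.46. H2-Q10, known as a secreted class I molecule, was at 8.42 to 30.1 CPM at day 0, and it fell on all 3 days (log2 fold changes -1.81, -1.71 and -2.57), to 1.65 to 5.81 CPM at day 21 (5.96-fold, adjusted p = 0.000831). H2-T24 fell at day 14 (-1.01, adjusted p = 0.0141) and day 21 (-1.14, adjusted p = 0.0137), and H2-Q6 fell at day 21 (-1.17, adjusted p = 0.0187). H2-M2 rose from 0.698 to 1.15 CPM at day 0 to 1.34 to 7.72 at day 14 (2.31, adjusted p = 0.0124) and 2.23 to 10.4 at day 21 (2.42, adjusted p = 0.0136). H2-T23, which encodes Qa-1, the ligand of the CD94 and NKG2A receptor, had -0.55 at day 21 (adjusted p = 0.0237), under the fold change threshold. H2-Q6 and H2-Q10 each have 150-base windows identical to another gene (5.99% and 3.43%), mostly H2-Q7, so counts among these neighbours are uncertain.

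Upstream of the class I genes, 20 of 22 listed regulators were tested (21 were in the table), and 3 rose at day 7, 2 at day 14 and 0 at day 21, while 1 fell, at day 21. All genes passed at 16.1%, 23.1% and 22.5%, so these shares lie near or below the background. Without day 7 replicate 2 and day 14 replicate 1, 1 regulator rose at day 14 and 2 fell at day 21, and DESeq2 and RLE factors also gave 2 at day 21. Ifng, the main inducer, was at 0 to 0.254 CPM in every library and was not tested. Ifngr2, a chain of its receptor, was higher in every later library than at day 0 (67.5 to 82.2 CPM at day 0, 93.2 to 134.5 at day 7, 118 to 139 at day 14 and 87.9 to 127 at day 21) and rose at days 7 and 14 (0.65, adjusted p = 0.00276, and 0.81, adjusted p = 0.000266). Socs1, a feedback inhibitor of the pathway, rose 2.71-fold at day 7 (1.44, adjusted p = 0.00354) and 1.83-fold at day 14 (adjusted p = 0.0363). Irf1, the interferon-induced activator of class I promoters, fell at day 21 from 88.9 ± 6.38 to 55.4 ± 6.51 CPM (log2 fold change -0.68, adjusted p = 0.0063), and Irf7 rose at day 7 (0.80, adjusted p = 0.0269). Rfx5, which binds the X box, had log2 fold changes of 0.11, -0.19 and 0.06, none past the thresholds.

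Of 12 genes of the interferon gamma response 3 rose on each later day, beside 8.78%, 12% and 12.4% of all genes, and 0, 2 and 2 fell, beside 7.36%, 11.2% and 10.1%, with medians of 0.07, -0.16 and -0.47. The chemokine genes Cxcl9 and Cxcl10 rose on all 3 days, from 0.335 to 1.04 CPM at day 0 to 6.12 to 11.6 at day 7 for Cxcl9 (11.4-fold, adjusted p = 0.000206) and from 1.40 to 2.16 to 11.1 to 17.4 CPM for Cxcl10 (8.04-fold, adjusted p = 6.92e-05). Iigp1, an interferon-inducible GTPase, rose on all 3 days (0.93, 0.69 and 0.91, adjusted p = 0.00135, 0.00543 and 0.00147), and Gbp7, another, fell at day 14 (-0.62, adjusted p = 0.0105). At day 21, 4 and not 2 of the 12 fell with DESeq2 and without the 2 lowest libraries, where 1 fell at day 14. Of 17 genes of the type I response, 4, 3 and 1 rose and 0, 0 and 1 fell, beside 16.1%, 23.1% and 22.5% of all genes in either direction, so no more than the background passed at days 14 and 21. Those that rose included Isg15 (1.09 at day 7, adjusted p = 0.0168), Zbp1 (0.99 at day 7, adjusted p = 0.0039), Oas1a (0.82 at day 7, adjusted p = 0.018) and Mx1 (1.21 at day 21, adjusted p = 0.0372).

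MHC class II genes, the counterpart that presents to CD4 T cells, were 9 in number, of which 1, 1 and 0 rose and 0, 1 and 1 fell at days 7, 14 and 21, beside 16.1%, 23.1% and 22.5% of all genes, with medians of 0.56, 0.18 and -0.19. Without day 7 replicate 2 and day 14 replicate 1, 5 of 9 rose at day 7 in place of 1, with a median of 0.76. Day 7 replicate 2 was low in this list too (-0.81 from its day mean), so leaving it out raises the day 7 mean. H2-DMb1, which helps load class II, rose at day 7 (0.79, adjusted p = 0.025) and day 14 (0.64, adjusted p = 0.0498), the latter a call that was lost with total count scaling and with RLE factors. H2-Ob, mainly of B cells, fell at day 14 (-1.70, adjusted p = 0.0148) and day 21 (-2.27, adjusted p = 0.00673). Ciita, the class II transactivator related to Nlrc5, was at 15.8 to 23.8 CPM at day 0, 21.2 to 36.8 at day 7, 10.5 to 35.7 at day 14 and 10.95 to 28.8 at day 21 (log2 fold changes 0.55, 0.18 and -0.18, adjusted p = 0.311, 0.761 and 0.784). At day 14 its low pair was replicates 1 and 2, the same libraries as for Nlrc5.

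**Figure D5:**
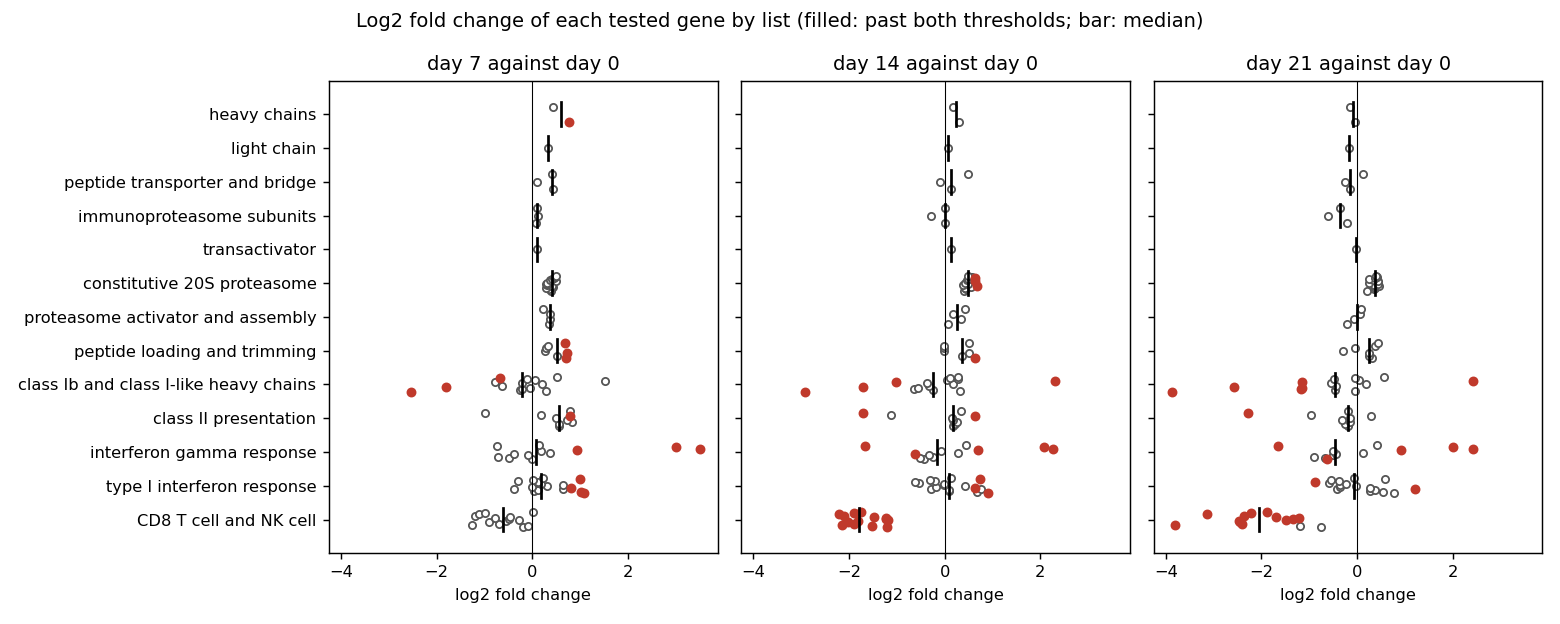
Log2 fold change against day 0 (horizontal axis) of each tested gene, by list (rows) and day (panels, which share the day 0 libraries), filled where both thresholds were passed, with the median as a bar. The immunoproteasome subunits have medians of 0.11 and -0.35 at days 7 and 21 and the standard 20S subunits of 0.40 and 0.38, and the 14 tested genes of CD8 T and natural killer cells are all left of 0 at days 14 and 21, filled in 14 and 12.

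CD8 T cells and natural killer cells read class I at the cell surface. Of 15 marker genes of these cells 14 were tested: 0 passed at day 7 in edgeR, 14 fell at day 14 and 12 at day 21, beside 16.1%, 23.1% and 22.5% of all genes in either direction. At day 7, 4 had an unadjusted p under 0.05, beside 38.2% of all genes, and DESeq2 called 2 lower. The list had medians of -0.62, -1.79 and -2.05. Their summed level was 61.2 to 154 CPM at day 0, 44.4 to 88.1 at day 7, 22.5 to 45.0 at day 14 and 16.6 to 40.5 at day 21, and Gzmk was at 0 in some library. Gzma, a granule protease, was at 39.7, 17.5, 31.9 and 14.5 CPM at day 0 and at 1.20 to 3 CPM at day 21 (log2 fold change -3.80, adjusted p = 0.000482). Prf1, the pore protein, and the natural killer receptor genes Ncr1 and Klrb1c fell at days 14 and 21, by 2.02 and 2.21 on the log2 scale for Prf1 and Ncr1 at day 14. Cd8a fell at day 14 (-1.21, adjusted p = 0.0165) and had -0.76 at day 21 (adjusted p = 0.146).

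Among 17 leukocyte markers 4, 5 and 4 rose and 2, 3 and 5 fell at days 7, 14 and 21, beside 8.78%, 12% and 12.4% of all genes higher and 7.36%, 11.2% and 10.1% lower. Without the 2 lowest libraries 1 fell at day 14. Their summed level was 775 to 1067, 717 to 900.2, 893 to 1160 and 595 to 1107 CPM from day 0 to day 21, with none at 0. The macrophage gene Cd68 rose from 36.3 to 48.0 CPM at day 0 to 96.1 to 144 at day 7 (log2 fold change 1.35, adjusted p = 0.000314), and Adgre1 and Itgax rose on all 3 days, while the B cell gene Cd79a fell at days 14 and 21 (-1.70 and -1.94). Ptprc, carried by all leukocytes, had log2 fold changes of -0.39, -0.40 and -0.50 (adjusted p = 0.229, 0.197 and 0.147). Among 12 genes of resident lung cells 1, 2 and 1 rose and 2, 5 and 4 fell, beside the same shares, and without the 2 lowest libraries 1 fell at day 7 and 3 at day 14. They included Scgb1a1 of club cells (27890 to 9236, 5033 and 3090 CPM on average, a fall on each day), the surfactant genes Sftpc and Sftpb (a fall at days 14 and 21) and Col1a2 of fibroblasts (437 to 1467, 2047 and 2408 CPM, a rise on each day). The part of these shifts in cell makeup in the class I values was not tested.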

How the data were processed

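Whole lungs were profiled by RNA-seq at 4 time points, and groups were taken from the sample titles. According to the study's methods and the submitters' processing notes, the authors trimmed the reads, aligned them to GRCm38 with HISAT2 2.1.0, excluded multi-mapped reads and counted with HTSeq 0.6.0. The deposited values are the authors' raw counts per Ensembl gene with no normalization. The annotation release and the strand setting are not given in the sources used here. GENCODE M21 matched 33267 of 33340 identifiers. Counts were tested with edgeR 4.0.16 in R 4.3.3 (filterByExpr, TMM factors, glmQLFit and glmQLFTest, day group as the only term, all 15 libraries). A gene was called at a Benjamini-Hochberg adjusted p, taken over all 17457 tested genes, under 0.05 and a fold change over 1.5. CPM was scaled to TMM library sizes, log2 CPM used a prior count of 2, and CPM per kb used the summed length of merged exons. Ratios used counts plus 0.5 and an exact two-sided permutation test over libraries. The pipeline was tested on simulated data. No duplicated library was found by a chi-square test of counts. Intervals of counting error are not given, since replicate spread was used throughout, and PCR copies are not independent molecules.

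The members and lists were chosen with earlier results of these data known. Named were all 10 members, from each list up to 4 genes past the thresholds on the most days with a mean of at least 1 CPM (ties by the size of the day 14 change), 14 fixed genes (1 of which is not reported here, with Irf1, Ifng, Rfx5, Ciita, Psmb5, Psmb6, Psmb7, Psme1, Psme2, Erap1, H2-T23, Ptprc and Cd8a), and the 5 genes most like the members. Alternatives were DESeq2 1.42.0, limma 3.58.1 voom, other scalings and filters, the 2 groups alone, a replicate block, the mitochondrial share as a covariate, no fold change threshold, glmTreat, a count of 5 added in ratios, and leaving out each library. A fit without the 2 lowest libraries was chosen after seeing the data, on the members' own levels. Promoter windows came from RefSeq tables, and Tap2 and Nlrc5 had no entry.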

Additional observations from a re-analysis of the deposited data

Results flagged for a closer look

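In groups of 4 libraries, the extreme library was set against its neighbours by Dixon's criterion for 10 levels and 4 ratios on 3 days, and 4 of the 42 groups passed the critical value, where chance passes about 1 in 20. B2m in day 0 replicate 4 was at 850 CPM (849.8), below the other day 0 libraries at 1089 to 1130. That library also carries the treatment label that disagrees with its title. Tap1 in day 0 replicate 3 was at 74.2 CPM (74.15), above the others at 49.4 to 53.2. Psmb8 in day 14 replicate 1 was at 7.68 CPM, below the others at 14.3 to 15.45. The log2 ratio of Psmb10 to Psmb7 in day 0 replicate 2 was -0.17, below the others at 0.32 to 0.37. Day 21, with 3 libraries, was not examined in this way.

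The change from day 0 differed between days 7 and 21 for H2-K1 and H2-D1 by the direct test of day 21 against day 7, with log2 differences of -0.81 (adjusted p = 0.0096) and -0.59 (adjusted p = 0.0268). H2-K1 was lower in 3 of 3 day 21 libraries than in every day 7 library, and so was H2-D1, whose adjusted p was lost in 5 of 7 fits with a library left out (0.0186 to 0.0824).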

How the results depend on the processing

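The call of H2-K1 at day 7 held in 19 of 20 alternative fits (log2 fold change 0.66 to 0.88) and was lost with glmTreat. The member count at day 7 was 1 in the fit reported, 0 with glmTreat and 3 with no fold change threshold. At day 14 it was 1 with no fold change threshold in place of 0. At day 21 it was 1 in place of 0 with the 2 groups compared alone and without the 2 lowest libraries, an alternative chosen after seeing the data. For day 21 against day 7, 2 members became 1 with limma voom, total count scaling, RLE factors and a mean of at least 1 CPM, 4 with no filter, 0 with glmTreat and with the replicate block plus the mitochondrial share, 5 without the 2 lowest libraries, and 1 to 5 when each library was left out. Leaving out day 21 replicate 3 gave the 5 (H2-K1, H2-D1, B2m, Tap1 and Psmb9), and leaving out day 7 replicate 2 gave 3. H2-K1 was called there in 17 of 19 fits and H2-D1 in 6 of 19. Log2 fold changes near 0 turned sign: Psmb8 at day 14 from 0.01 to between -0.04 and 0.00 (-0.0035 with DESeq2, -0.0386 with voom, -0.0027 with RLE, -0.0122 with no filter, -0.0168 with at least 1 CPM, -0.013 with 2 groups alone, -0.009 with the replicate block, -0.0446 with the mitochondrial share, -0.0289 with both), Psmb10 at day 14 to 0.0122 (voom), 0.0105 (replicate block) and 0.0272 (without the 2 lowest), and Nlrc5 at day 21 to 0.0014 (voom), 0.0984 (replicate block) and 0.0585 (block with mitochondrial share). When libraries were left out in turn, sign changes came within -0.0042 to 0.1099 for Psmb8, -0.0133 to 0.2789 for Psmb9, -0.0197 to 0.179 for Psmb10 and -0.0264 to 0.2149 for Nlrc5 at day 7, within -0.043 to 0.1459 for B2m, -0.0201 to 0.2574 for Tap1, -0.0771 to 0.1773 for Psmb8, -0.1247 to 0.0745 for Psmb10 and -0.112 to 0.2972 for Nlrc5 at day 14, and within -0.0328 to 0.1557 for Tapbp and -0.1619 to 0.0996 for Nlrc5 at day 21. The cause was not tested. The 12 ratio differences kept their sign in the fits with a count of 5 added and with each library left out, and with fewer libraries the exact test has too few arrangements for its p to bear on stability.

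Counts over all genes moved by more than 1.5 times with the mitochondrial share (2818 to 1269 at day 7, 1475 with the replicate block added), with glmTreat (703, 1755 and 1754 at days 7, 14 and 21, from 2818, 4040 and 3924) and, at day 7, with no fold change threshold (4365). Between days 14 and 7 the count of 1048 became 1634 with DESeq2, 218 with the mitochondrial share, 35 with the block added, 14 with glmTreat and 340 to 1300 with libraries left out. Between days 21 and 7 the count of 1665 became 942, 329, 176 and 966 to 1822 with the mitochondrial share, the block added, glmTreat and libraries left out. Between days 21 and 14, 0 became 101 with DESeq2, 37 with no filter, 152 without the 2 lowest libraries and up to 127 with 1 library left out. Replicate numbers are shared across days, and 8 of 21 same-numbered pairs of libraries had correlated deviations over 0.1 (-0.244 to 0.397). Pairs with different numbers were not correlated, so these values cannot tell whether the numbers pair libraries. The fit reported does not pair them. With the replicate block 1, 0, 0 and 3 members were called at days 7, 14 and 21 against day 0 and at day 21 against day 7. Psmb8, at 130 to 280 counts per library, was the member measured with the fewest reads.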
